A study of Mus musculus with 8 samples.

Results

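Dclk3, Ddit4l, Actn2, Strip2, Syndig1l and Tpst1 are 6 genes known for high expression in the striatum and for low levels in models of Huntington's disease. They were followed here in sorted medium spiny neurons (MSNs), which send the output of the striatum and release GABA. All probes whose gene name in the scanner files is one of the 6 were taken, with Strip2 listed under its older name Fam40b and Syndig1l under Tmem90a. This gave 8 probes of 55681 on the array, and 6 of 26917 genes and transcripts tested. The genes were picked for their difference between R6/2 and WT, so that difference is given as a description and carries no test.

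RNA came from R6/2;Scn4b-Venus mice and from WT;Scn4b-Venus mice, all male and aged 4 weeks, with 4 arrays per genotype. The R6/2 line models the disease with a fragment only, since its transgene holds the first exon of human HTT with a long CAG repeat. Both genotypes carry the fluorescent reporter Venus linked to Scn4b, and Venus-positive cells that excluded propidium iodide were sorted. The labels do not say whether each array holds 1 mouse or a pool, so p-values measure only the spread between these arrays, which may be partly technical.

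MSNs receive glutamate from cortex and thalamus and dopamine from the midbrain, and much of their gene expression is rarely seen elsewhere in the brain. Dclk3 encodes a kinase of the doublecortin-like family, and Ddit4l a relative of Ddit4 that holds back the growth regulator mTORC1. Actn2 encodes alpha-actinin-2, which crosslinks actin and binds NMDA receptors in dendritic spines. Strip2 encodes a subunit of the STRIPAK complex, which joins a phosphatase to kinases, and Syndig1l (also called capucin) a transmembrane protein of the SynDIG family. Tpst1 encodes a Golgi enzyme that adds sulfate to tyrosines of secreted and membrane proteins.

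The probes are 60 bases long, and those of 5 genes are shown. Among them are both probes of Actn2 and of Strip2, since each of these genes gave a different answer from its 2 probes. Capitals mark AATAAA, the signal that precedes the poly(A) tail of most transcripts.
Ddit4l A_52_P311853: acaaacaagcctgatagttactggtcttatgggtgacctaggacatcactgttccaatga
Actn2 A_51_P108266: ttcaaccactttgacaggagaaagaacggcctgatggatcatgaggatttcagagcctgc
Actn2 A_55_P2163438: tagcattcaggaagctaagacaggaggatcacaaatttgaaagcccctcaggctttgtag
Strip2 A_51_P515242: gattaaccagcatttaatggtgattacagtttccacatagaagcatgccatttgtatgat
Strip2 A_55_P1994688: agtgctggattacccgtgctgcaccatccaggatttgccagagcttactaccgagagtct
Syndig1l A_66_P124284: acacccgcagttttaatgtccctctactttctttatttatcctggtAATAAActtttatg
Tpst1 A_55_P2016287: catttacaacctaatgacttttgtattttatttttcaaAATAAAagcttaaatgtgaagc

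On the mm9 build, per the scanner files, the Dclk3 probe lies on chromosome 9 from 111391481 to 111391540 (plus strand) and the Ddit4l probe on chromosome 3 from 137290927 to 137290986 (plus strand). The Syndig1l probe lies on chromosome 12 from 86018237 to 86018296 (minus strand) and the Tpst1 probe on chromosome 5 from 130611539 to 130611598 (plus strand). The Strip2 probes lie on the plus strand of chromosome 6, A_55_P1994688 from 29894432 to 29894491 and A_51_P515242 from 29909511 to 29909570, that is 15079 bases further along the gene. Their accessions in the file are different RefSeq transcripts of Strip2. The Actn2 probes lie on the minus strand of chromosome 13. A_55_P2163438 covers 12400548 to 12400607, and A_51_P108266 lies 35558 bases further along the strand, between 12364990 and 12367362. The coordinates of A_51_P108266 span 2373 bases for a probe of 60, so it reads across a gap in the genome, as a probe over a splice junction does. An annotation of the mm9 build was not used here, so exons and untranslated regions are not given. Of the 8 probes, 2 hold AATAAA (10.1% of all probes do), and none shares a run of 20 bases with any other probe on the array. GC content ranged from 23.3% for Tpst1 to 53.3% for the Strip2 probe A_55_P1994688.

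Levels are log2 values of the background-subtracted intensity, relative to the 75th percentile of the same array, which lay between 314 and 383 intensity units. A level of 0 is therefore as bright as that percentile. Probes well above background made up 74.0% to 78.8% of probes on R6/2 arrays and 50.1% to 76.3% on WT arrays, with the lowest share on WT replicate 1. R6/2 replicate 4 alone was on a second slide and scan, so within-slide values leave that array out. All 12 MSN markers were well above background on all 8 arrays, among them Ppp1r1b, Drd1, Drd2 and Penk. Of markers of other cells, 3 of 6 for astrocytes, 4 of 6 for oligodendrocytes, 3 of 6 for microglia, 1 of 5 for endothelial cells, 1 of 6 for interneurons and 2 of 5 for cortical glutamatergic neurons (Tbr1 and Neurod2) were well above background on all 8 arrays. The summed level of the oligodendrocyte markers, in multiples of the 75th percentile, was 6.10 to 13.5 on R6/2 arrays and 6.24 to 41.2 on WT arrays. Its part in the results was not tested. The summed level of the MSN markers was 601 to 719 on R6/2 arrays and 856 to 1091 on WT arrays, without overlap.

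All 6 genes had a lower mean level in R6/2 MSNs than in WT MSNs, read on the brightest probe of each gene, where 44.5% of all tested probes had a negative difference. The log2 difference, R6/2 minus WT, ran from -0.52 for Dclk3 to -1.27 for Tpst1 in the 5 genes well above background on all 8 arrays, and was -2.47 for Ddit4l, which was well above background on 1 of 4 R6/2 arrays. The median of the 6 was -0.91, against a median of +0.05 over all 41385 tested probes. It was -0.81 over the 5 genes well above background on all 8 arrays, that is without Ddit4l. Every R6/2 array lay below every WT array for 3 of the 6 genes, Strip2, Syndig1l and Tpst1, and 2.26% of all tested probes did so. In limma over all tested probes, 0 of the 8 probes passed an adjusted p of 0.05, and 1 probe of the whole array did (0.00242%), as higher in R6/2. At an unadjusted p under 0.05, 5 of the 8 probes were lower and none higher, against 3.05% of all tested probes lower and 7.02% in either direction. Among the 5 was Ddit4l, which reached the 4 arrays needed for a test mostly through WT arrays (3 of 4), so its p-value is not read here. The genes were chosen on this contrast, so these counts are descriptions. Among all tested probes, 1.35% had a difference as low as that of Tpst1, 2.5% as that of Actn2, 4.15% as that of Strip2, 6.66% as that of Syndig1l and 9.77% as that of Dclk3. In sorted cells, fewer cells of a kind and less RNA per cell cannot be told apart by these values.

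**Figure D1:**
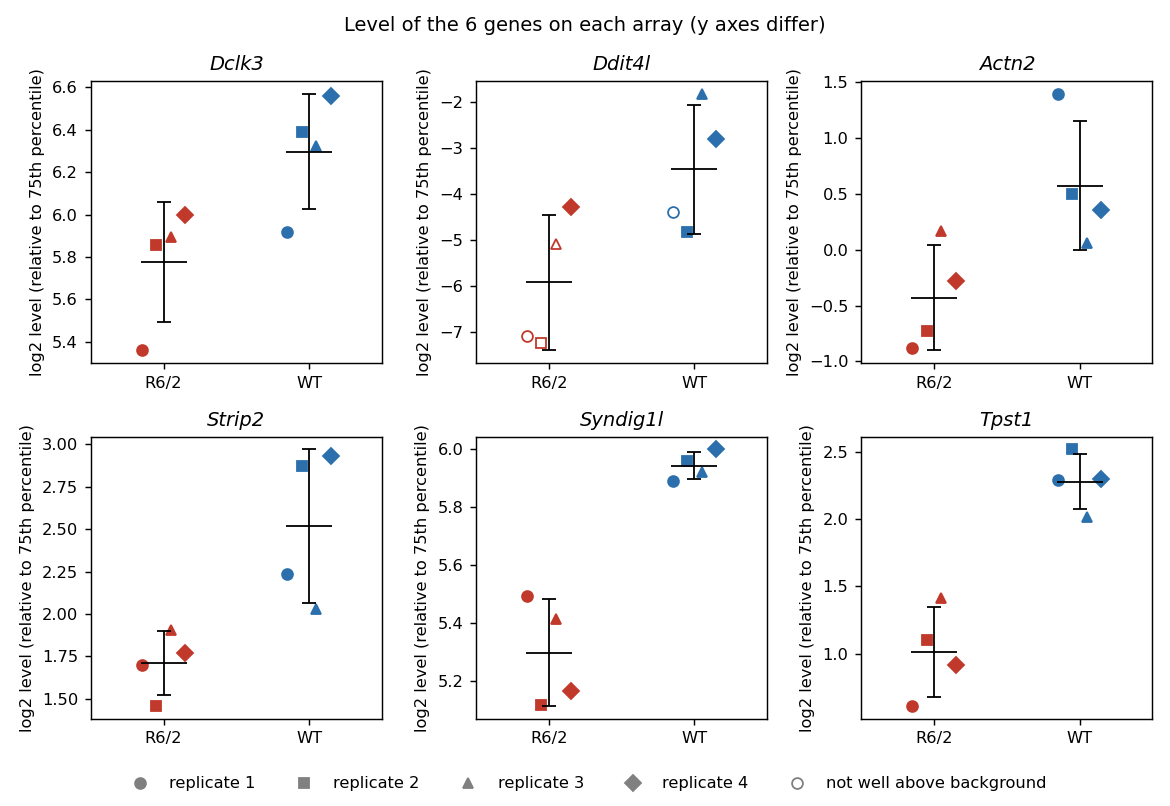
Level of each gene on its brightest probe, in log2 units relative to the 75th percentile of the array, for R6/2 (red, left) and WT (blue, right), with 1 point per array, the mean and the SD (n = 4 each). The groups do not overlap for Strip2, Syndig1l and Tpst1, and open points mark arrays where the probe was not well above background, 3 of 4 R6/2 arrays and 1 of 4 WT arrays for Ddit4l.

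Tpst1 was lower in R6/2 by more than the spread of either group. Its level was 0.61, 1.10, 1.41 and 0.92 on R6/2 replicates 1 to 4, against 2.29, 2.52, 2.01 and 2.30 on WT replicates 1 to 4. Every R6/2 array lay below every WT array, and R6/2 replicate 1 was the lowest of all. The mean was 1.01 ± 0.33 in R6/2 and 2.28 ± 0.21 in WT (SD, n = 4 each), a difference of -1.27 ± 0.23 (standard error), or 0.414 of the WT level. Within the first slide the difference was -1.24.

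Syndig1l had the smallest spread among WT arrays of the 6 genes. Its level was 5.49, 5.12, 5.41 and 5.17 on R6/2 replicates 1 to 4, against 5.89, 5.96, 5.92 and 6.00 on WT replicates 1 to 4. The R6/2 arrays were more spread than the WT arrays, and the groups did not overlap. The mean was 5.30 ± 0.18 in R6/2 and 5.94 ± 0.05 in WT (SD, n = 4 each), a difference of -0.65 ± 0.18 (standard error), or 0.639 of the WT level. It was -0.60 within the first slide.

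Dclk3, read by a single bright probe, had the smallest difference of the 6. Its level was 5.36, 5.86, 5.89 and 6.00 on R6/2 replicates 1 to 4, against 5.92, 6.39, 6.32 and 6.56 on WT replicates 1 to 4. The groups overlapped, since R6/2 replicate 4 lay above WT replicate 1, the WT array with the fewest probes above background. The mean was 5.78 ± 0.28 in R6/2 and 6.30 ± 0.27 in WT (SD, n = 4 each), a difference of -0.52 ± 0.23 (standard error), or 0.698 of the WT level. It was -0.38 without R6/2 replicate 1, the lowest array, and -0.65 without WT replicate 1.

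Ddit4l was near background, so its size is poorly fixed. Its level was -7.10, -7.25, -5.09 and -4.27 on R6/2 replicates 1 to 4, against -4.40, -4.83, -1.82 and -2.79 on WT replicates 1 to 4. It was well above background on 1 of 4 R6/2 arrays (replicate 4) and on 3 of 4 WT arrays (replicates 2 to 4), and the groups overlapped. The mean was -5.93 ± 1.48 in R6/2 and -3.46 ± 1.41 in WT (SD, n = 4 each), a difference of -2.47 ± 0.87 (standard error). With normexp background correction and an offset of 50, which lessens differences of dim probes, the difference was -0.69, and those of Tpst1 (-1.16), Actn2 (-0.84) and Strip2 (-0.75) were larger in size.

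Actn2 gave opposite signs on its probes. On the brighter probe, A_51_P108266, the level was -0.88, -0.72, 0.16 and -0.28 on R6/2 replicates 1 to 4, against 1.39, 0.49, 0.05 and 0.35 on WT replicates 1 to 4. R6/2 replicate 3 lay above WT replicate 3, and WT replicate 1 stood highest. The mean was -0.43 ± 0.47 in R6/2 and 0.57 ± 0.58 in WT (SD, n = 4 each), a difference of -1.003 ± 0.35 (standard error), and -0.73 without WT replicate 1. On the dimmer probe, A_55_P2163438, whose accession in the file is a cDNA clone from adult corpus striatum, the level was -2.89, -2.15, -2.05 and -0.50 in R6/2, against -3.56, -2.78, -0.59 and -2.21 in WT. That probe differed by +0.39 ± 0.70 (standard error), with means of -1.90 ± 1.01 in R6/2 and -2.29 ± 1.26 in WT (SD, n = 4 each), and was not well above background on WT replicate 1. Its spread exceeded its difference, and the groups overlapped widely.

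Strip2 differed on 1 of its 2 probes. On A_51_P515242, the probe further along the gene, the level was 1.70, 1.46, 1.91 and 1.77 on R6/2 replicates 1 to 4, against 2.23, 2.87, 2.03 and 2.93 on WT replicates 1 to 4. The groups did not overlap, but R6/2 replicate 3 lay close below WT replicate 3. The mean was 1.71 ± 0.19 in R6/2 and 2.52 ± 0.45 in WT (SD, n = 4 each), a difference of -0.81 ± 0.26 (standard error). On A_55_P1994688 the level was 1.38, 1.58, 1.10 and 1.19 in R6/2, against 1.15, 1.14, 0.86 and 1.90 in WT. Here the difference was +0.05 ± 0.26 (standard error), with means of 1.31 ± 0.21 in R6/2 and 1.26 ± 0.44 in WT (SD, n = 4 each), and both probes were well above background on all 8 arrays.

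**Figure D2:**
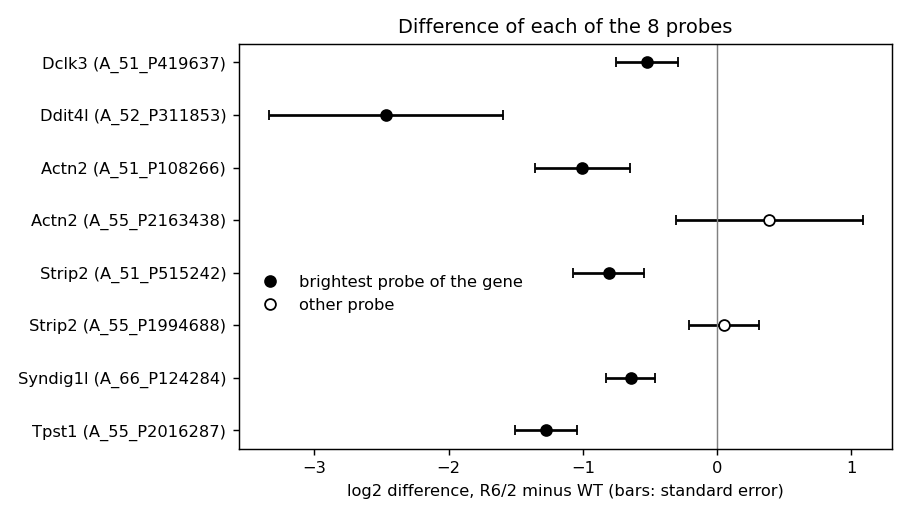
Log2 difference between R6/2 and WT for each of the 8 probes, with the standard error from limma as a bar; filled points are the brightest probe of a gene and open points the other probe. The 6 filled points lie below 0, from -0.52 to -2.47, and the open points lie at +0.39 for Actn2 and +0.05 for Strip2.

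The unequal change within a gene was seen array by array for Strip2. The level on A_51_P515242 minus that on A_55_P1994688 was 0.31, -0.12, 0.81 and 0.58 on R6/2 replicates 1 to 4, against 1.08, 1.73, 1.17 and 1.03 on WT replicates 1 to 4. No R6/2 array reached the lowest WT array, and the mean was 0.40 ± 0.40 in R6/2 and 1.25 ± 0.32 in WT (SD, n = 4 each). A_51_P515242 was without overlap on its own as well. How often other probe pairs of a gene separate in this way was not computed, so the contrast is a description. For Actn2 the same quantity, A_51_P108266 minus A_55_P2163438, was 2.02, 1.43, 2.22 and 0.21 in R6/2, against 4.95, 3.27, 0.64 and 2.56 in WT. These overlapped, with a mean of 1.47 ± 0.90 in R6/2 and 2.86 ± 1.79 in WT (SD, n = 4 each). With the mean of the probes in place of the brightest, the difference was -0.31 for Actn2 and -0.38 for Strip2, and the median over the 6 genes was -0.58.

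**Figure D3:**
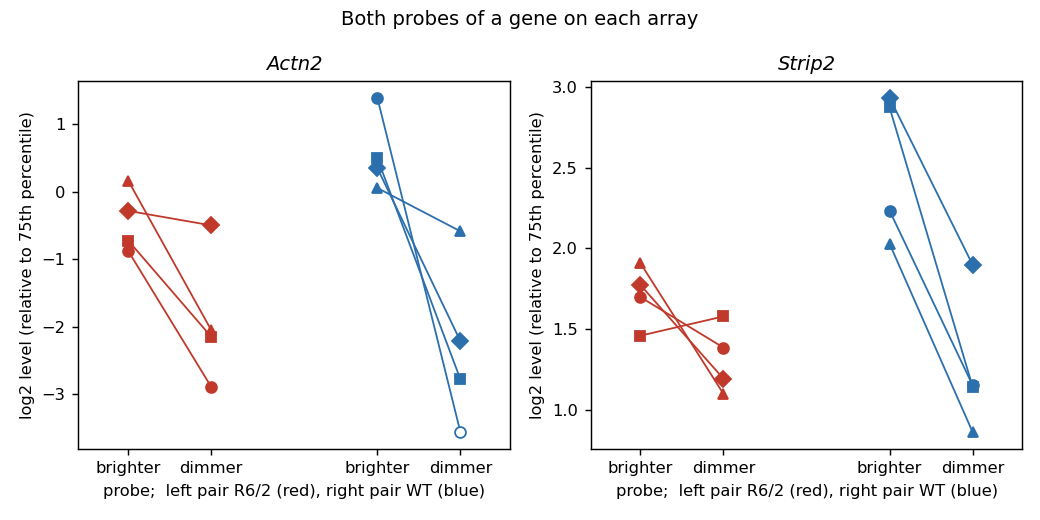
Level of the brighter and the dimmer probe of Actn2 and Strip2, joined by a line for each array, with R6/2 in red on the left and WT in blue on the right; marker shapes are replicates 1 to 4 as in the plot of levels by array, and the open point is not well above background. For Strip2 every WT line falls by at least 1.03 log2 units from the brighter to the dimmer probe, while the R6/2 lines change by 0.81 at most.

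The authors' deposited table gives an absolute fold between the groups for each probe. In the authors' deposited table this fold was 1.44 for Dclk3, 5.54 for Ddit4l, 2.01 for Actn2 (A_51_P108266), 1.75 for Strip2 (A_51_P515242), 1.57 for Syndig1l and 2.42 for Tpst1, all marked down. The authors' deposited table marks both other probes up, with a fold of 1.31 for Actn2 and 1.03 for Strip2.

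Genes that mark MSNs had lower mean levels in R6/2 as well, by a median of -0.54 over the 12 markers. The differences ran from -1.15 for Scn4b to -0.08 for Tac1, all negative, where 44.5% of all tested probes had a negative difference. For 5 of the 12 every R6/2 array lay below every WT array, as for 2.26% of all tested probes. The groups overlapped for the other markers. No marker passed the threshold in limma (smallest adjusted p = 0.552). The reporter gene Scn4b, to which the sorted fluorescence is linked, was at 5.12 ± 0.43 in R6/2 and 6.27 ± 0.38 in WT (SD, n = 4 each), and its part in the results was not tested. The levels of the 6 genes were therefore also set against the mean level of the 12 markers on the same array. That mean was 4.88 ± 0.16 in R6/2 and 5.47 ± 0.20 in WT (SD, n = 4 each), so a gene without any change would rise on this scale. The share of all tested probes without overlap on this scale was not computed. On that scale Tpst1 was -3.87 ± 0.33 in R6/2 and -3.19 ± 0.33 in WT (SD, n = 4 each), a difference of -0.68, with no overlap. Syndig1l was 0.42 ± 0.09 in R6/2 and 0.47 ± 0.20 in WT, a difference of -0.06, within the spread of either group. Dclk3 was 0.90 ± 0.38 in R6/2 and 0.83 ± 0.36 in WT, a difference of +0.07. The difference was -0.22 for Strip2, -0.41 for Actn2 and -1.88 for Ddit4l, and for all 3 the groups overlapped. A difference near 0 on this scale says that the gene and the markers changed by a like amount, and it does not say which cells or how much RNA per cell gave the change.

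**Figure D4:**
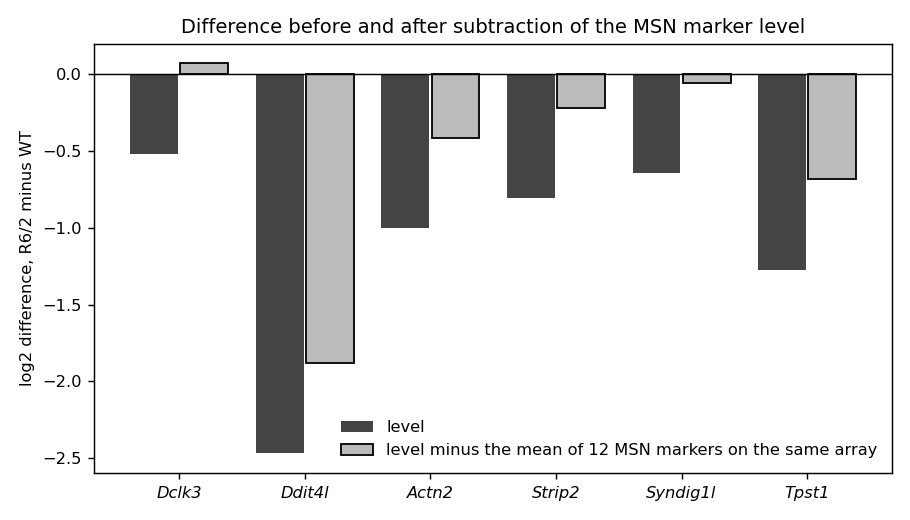
Log2 difference between R6/2 and WT of each gene as measured (dark bars) and after the mean level of 12 MSN markers on the same array is subtracted (light bars), with no error bars; the spreads are in the text. The bar of Tpst1 is -1.27 before and -0.68 after, and those of Syndig1l and Dclk3 are -0.06 and +0.07 after.

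None of the relatives of the 6 genes named here passed an adjusted p of 0.05 in limma. Neither did any of the 6 genes themselves, and 0.00242% of all tested probes did. Ddit4, the stress-induced relative of Ddit4l, was at 4.996 in R6/2 and 4.96 in WT (difference +0.04, adjusted p = 0.983). Tpst2, which carries out the same reaction as Tpst1, differed by -0.12 (adjusted p = 0.958), Dclk1 by -0.12 (adjusted p = 0.933, its 4 probes between -0.76 and -0.12) and Dclk2 by -0.23 (adjusted p = 0.914, its other probe at +0.67). Among the alpha-actinins, Actn1 differed by +0.05 and Actn4 by -0.47, neither past the threshold in limma. Actn3 was well above background on 4 of 4 R6/2 arrays and on 1 of 4 WT arrays, so its size is not given. Syndig1 differed by +0.86 (adjusted p = 0.691), with its other probe at -1.35. Whether a gene and its relative differed from each other was not tested.

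Of 63 genes in 6 lists of relatives and partners, 60 were tested, and 0 passed in limma over all tested probes, where 0.00242% of all probes passed. At an unadjusted p under 0.05, 4 were lower and 5 higher (Ttn, which passed the filter only through R6/2 arrays, among them), against 3.05% and 3.97% of all tested probes. The median difference was -0.11, with 37 negative and 23 positive, where 44.5% of all tested probes had a negative difference. In the doublecortin family the microtubule-binding protein gene Dcx, a marker of young neurons, was at 1.86 ± 0.43 in R6/2 and 0.68 ± 0.19 in WT (SD, n = 4 each), a difference of +1.18 (adjusted p = 0.485), with every R6/2 array above every WT array and its 3 probes between +0.67 and +1.18. The list median was -0.12 over 4 genes.

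In mTORC1 regulation (median -0.09 over 14 genes) the smallest p-values were those of Sesn1, a stress-induced brake on mTORC1 (-0.55, adjusted p = 0.670), Tsc1 (-0.27, adjusted p = 0.824) and Sesn2 (+0.34, adjusted p = 0.860). Sesn1 was at 1.12 ± 0.18 in R6/2 and 1.67 ± 0.22 in WT (SD, n = 4 each), without overlap. In the STRIPAK complex (median -0.05 over 17 genes) small p-values were those of the scaffold gene Slmap (-0.48, adjusted p = 0.691, its other probe at +0.11) and Cttnbp2 (-0.52, adjusted p = 0.736). Slmap was at 5.34 ± 0.15 in R6/2 and 5.83 ± 0.20 in WT (SD, n = 4 each), without overlap.

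In alpha-actinins and their partners (median -0.21 over 15 genes) the genes named by the smallest p-values were Ttn, Cacna1c and Synpo. The titin gene Ttn, whose protein binds alpha-actinin-2 in muscle, was well above background on 4 of 4 R6/2 arrays and 0 of 4 WT arrays on 1 probe. With WT values raised, where lower, to the lowest level called well above background on their array, R6/2 was 4.36-fold higher. This is not a firm minimum, since probes above that level can also fail the call. That probe passed the filter on dim probes only through the R6/2 arrays, so its p-value is not read here, and the rest of the 4 Ttn probes did not pass the filter. Its measured means were -2.24 ± 1.10 in R6/2 and -6.31 ± 0.89 in WT (SD, n = 4 each). The calcium channel gene Cacna1c differed by -0.72 (adjusted p = 0.661, without overlap, its other probe at +0.31) and the spine gene Synpo by -0.58 (adjusted p = 0.693, with another of its 3 probes at +1.58). In the SynDIG family (median +0.14 over 3 genes), Prrt1 was at 5.15 ± 0.07 in R6/2 and 5.42 ± 0.14 in WT (SD, n = 4 each, difference -0.27, adjusted p = 0.788), without overlap, and Prrt2 differed by +0.14 (adjusted p = 0.951). In the sulfation pathway (median +0.04 over 7 genes), Bpnt1, which breaks down the by-product of sulfate transfer, differed by +1.05 (adjusted p = 0.395, its other probe at +0.49), Bpnt2 by -0.36 (adjusted p = 0.783) and the sulfate donor transporter gene Slc35b3 by -0.50 (adjusted p = 0.794). Bpnt1 was without overlap in the upward direction, as were 2.3% of all tested probes, and Bpnt2 in the downward one.

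**Figure D5:**
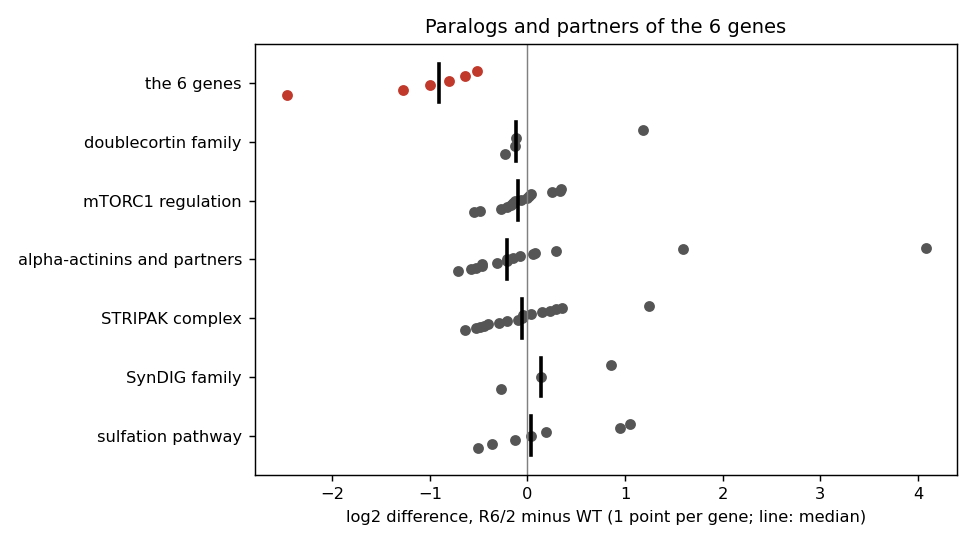
Log2 difference between R6/2 and WT for the 6 genes (red) and for the tested genes of 6 lists of relatives and partners (grey), with 1 point per gene and a line at the median. The 6 genes lie between -2.47 and -0.52, and the list medians lie between -0.21 and +0.14. The point far to the right is Ttn, drawn from its measured means, although no WT array was well above background.

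Named genes and unnamed transcripts beside the 6 on the chromosome were examined within 250000 bases of each brightest probe on mm9. Of 42 tested neighbours, 0 passed in limma, and 19 had a negative and 23 a positive difference, with a median of +0.03. Of all tested probes, 44.5% had a negative difference. At an unadjusted p under 0.05, 2 were lower (Arel1, at -1.09, and Isca2, at -0.54, both near Syndig1l) and 1 was higher (Asl, at +1.08, near Tpst1), against 3.05% and 3.97% of all tested probes. Around Actn2, 7 of 7 neighbours had a positive difference, none past an unadjusted p of 0.05, from +0.03 to +0.66. Around Ddit4l the 4 neighbours lay between -0.10 and +0.25. An unnamed probe on the same strand, A_55_P2061174, lies 1841 bases beyond the Dclk3 probe on chromosome 9, at 111393322 to 111393381, and was at 0.36 in R6/2 and 0.39 in WT (means, n = 4 each). Another, A_55_P2145084, lies 3907 bases before it and differed by -1.22 ± 0.79 (standard error). Whether either reads Dclk3 cannot be told from the files.

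By the root mean square difference of the profiles over the 8 arrays, each gene's own mean subtracted, the genes nearest to each of the 6 were sought among 17094 tested genes with a current symbol. Nearest to Tpst1 were Neto2 (0.19), an auxiliary subunit of kainate receptors, Hrh3 (0.19), a histamine receptor, and Enpp4 (0.20), where the median gene lay at 0.80. Nearest to Syndig1l were Gpm6b (0.07), Prkcb (0.08) and Neto1 (0.09), against a median of 0.55. Nearest to Dclk3 were 1500009C09Rik (0.10), Dhx9 (0.11) and Gnb5 (0.11), against 0.54. Strip2 lay nearest to Slc44a1 (0.16), Lrtm2 (0.17) and the retinoic acid receptor gene Rarb (0.18), against 0.65. Actn2 lay nearest to Ptcd1 (0.21), Rint1 (0.24) and Gtf2f2 (0.25), against 0.81. Ddit4l lay nearest to Amotl1 (0.47), St8sia2 (0.73) and Agtr1a (0.78), against 1.80. These distances grow with a gene's own spread between arrays, which was largest for Ddit4l among the 6 (pooled SD within groups 1.44). Among the 6, the pair with the smallest distance was Strip2 and Syndig1l (0.29), and every pair with Ddit4l lay at 1.43 or more. The profiles hold the difference between genotypes, so the likeness is a description.

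Promoter sequences from RefSeq (GRCm38.p6, from 250 bases before to 50 after the start) were matched for 4 of the 6 genes, Actn2, Ddit4l, Strip2 and Tpst1. They were searched on both strands for GGGCGG, the box bound by Sp1, TGACGTCA, the cAMP response element, and TATAAA, the core of the TATA box. Of the 4 genes, 3 held GGGCGG, with 2 matches each in Actn2, Ddit4l and Strip2 and none in either start of Tpst1. Counted by promoter that is 3 of 5, while 35.7% of all 32851 promoters hold GGGCGG. TGACGTCA was found in none (1.79% of all promoters hold it), and TATAAA once, in Ddit4l (13.6% of all promoters). The promoters with GGGCGG are shown, with the matches on either strand in capitals, as the feature that these 3 genes share.
Actn2 chr13:12340683-12340982 (minus strand): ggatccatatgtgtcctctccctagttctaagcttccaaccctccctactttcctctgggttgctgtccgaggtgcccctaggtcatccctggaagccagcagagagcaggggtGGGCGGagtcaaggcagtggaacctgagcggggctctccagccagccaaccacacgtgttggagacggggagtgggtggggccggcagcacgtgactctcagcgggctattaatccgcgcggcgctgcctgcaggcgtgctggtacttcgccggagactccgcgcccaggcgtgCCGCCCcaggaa
Ddit4l chr3:137623422-137623721 (plus strand): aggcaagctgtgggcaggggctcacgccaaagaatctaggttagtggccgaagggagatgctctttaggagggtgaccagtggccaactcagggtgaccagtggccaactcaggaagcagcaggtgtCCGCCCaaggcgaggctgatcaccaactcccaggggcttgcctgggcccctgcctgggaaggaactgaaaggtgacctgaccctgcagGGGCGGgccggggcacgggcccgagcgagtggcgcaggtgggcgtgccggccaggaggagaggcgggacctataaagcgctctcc
Strip2 chr6:29916763-29917062 (plus strand): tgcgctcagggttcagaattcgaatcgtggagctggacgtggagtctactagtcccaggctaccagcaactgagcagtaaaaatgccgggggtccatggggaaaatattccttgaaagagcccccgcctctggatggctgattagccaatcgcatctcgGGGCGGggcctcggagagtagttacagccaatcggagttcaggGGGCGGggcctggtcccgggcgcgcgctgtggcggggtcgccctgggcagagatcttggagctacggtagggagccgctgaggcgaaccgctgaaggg

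GC content was 64.7% for Actn2, 65.7% for Ddit4l and 62% for Strip2, against a median of 52.7% over all promoters. These promoters hold 19, 14 and 22 CG pairs in the same order, against a median of 7. They were shown because they hold GGGCGG, a box of G and C only, so their GC content and CG pairs are partly set by that choice. Both starts of Tpst1 lack GGGCGG, with a GC content of 46.0% and 63.3% and with 4 and 19 CG pairs.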

How the data were processed

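The 8 samples were hybridised to 1-colour Agilent arrays. Per the file headers, the authors' intensity values were made by Feature Extraction 10.7.3.1 with spatial and multiplicative detrending and with surrogate values where spots are dim. The deposited whole-series table holds the authors' raw intensity, log2 values (by their values, the intensity over the array's 75th percentile), p-values of an unpaired t-test per the file headers, and absolute fold. The 6 genes and all lists were chosen with earlier results of these data known.

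Spots marked as outliers were left out, 1 garbled line of R6/2 replicate 3 was dropped, spots of a probe were averaged as log2, and the 75th percentile over non-control probes was subtracted. Of 55681 probes, 41385 stood well above background on 4 or more of the 8 arrays and entered limma 3.58.1 (R 4.3.3). Its moderated two-sided test used lmFit with eBayes, p-values were adjusted by Benjamini-Hochberg over all tested probes, and the threshold was 0.05. The fit was tested on simulated data. Each gene was read on its brightest tested probe. Probes were named by accession (26849), symbol (3762) or older symbol (625) through a GRCm38.p6 table, and the other 24445 kept the file's name. Named partners are the 3 genes of each list with the smallest p, and any whose groups did not overlap; relatives, and the other neighbours and counts named, are given by role or position. The contrast between probes of a gene, the levels relative to MSN markers and the neighbour window were chosen after values were seen. Differences carry the precision of 4 arrays per genotype. Over tested probes, arrays correlated pairwise at 0.905 to 0.953, so none was a copy of another. Some items covered by these rules are not reported here.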

Additional observations from a re-analysis of the deposited data

How the results depend on the processing

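Each of the 6 genes kept a negative difference in every alternative run for it (18 each, 17 for Ddit4l, which is not well above background on all 8 arrays). The ranges were -0.65 to -0.38 for Dclk3, -3.02 to -0.69 for Ddit4l, -1.20 to -0.31 for Actn2, -0.97 to -0.38 for Strip2, -0.74 to -0.55 for Syndig1l and -1.41 to -1.14 for Tpst1. Not all of these runs are separate checks. The genes were picked for this difference, and every run read a gene on its brightest probe or on the mean of its probes. None read the other probe of Actn2 or Strip2 alone, on which the difference was +0.39 and +0.05. The filters on dim probes, a single probe per gene and the replicate block left the differences unchanged, since they keep the same probe and arrays. So did the mean of the probes for genes with a single probe. The slide as a block gave the same differences as leaving out R6/2 replicate 4. The median over the 6 genes was -0.58 with the mean of the probes of a gene, since the dimmer probes of Actn2 and Strip2 then enter, and it moved by less than the spread between arrays in the other 17. Leaving out 1 array at a time, the median ran from -1.07 to -0.81. The count of probes past the threshold was 1 (1 higher and 0 lower) and rose to 8 with normexp (5 higher and 3 lower), 7 with probes well above background on all 8 arrays (4 higher and 3 lower), 5 with the mean of the probes of a gene and 2 with quantile normalization. It was 0 with the replicate block, 0 with the slide as a block and 0 with the unpaired t-test, and ran from 0 to 3 when 1 array was left out, with 3 without WT replicate 1 and 0 without any other. The cause of these shifts was not tested. The count of relatives and partners past the threshold stayed at 0 in all 19 alternatives, and 4 to 10 of them had an unadjusted p under 0.05. The labels give same-numbered arrays only a number in common. Their deviations from the group means correlated at -0.04 to 0.02, within the -0.06 to 0.08 of all pairs across genotypes. This does not settle whether they were handled together. Signal near background limits Ddit4l and the dimmer Actn2 probe, and 4 arrays per group limit all values.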
